A study of Mus musculus with 6 samples.

Results

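The miR-181 family was followed through a tau pull-down of mouse hippocampus. The members are the mature miR-181a, miR-181b, miR-181c and miR-181d arms that the authors' deposited table names. Its names were linked to array probes by matching the table's fold changes and p-values to values recomputed from the probes. This gave 6 of the 2380 named RNAs: the 5p arms of miR-181a, miR-181b, miR-181c and miR-181d and the 3p arms of miR-181c and miR-181d. Together they had 29 probes, 4 for miR-181b-5p and 5 for each of the others. The 3p arms of the miR-181a and miR-181b hairpins are not named in that table and were not analysed here. One hairpin of the family, mmu-mir-181d, is named with 1 probe and is given separately.

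The PS19 mice carry a transgene for human tau with the P301S mutation, a cause of inherited frontotemporal dementia. They were set against wild-type (WT) mice. Hippocampus was homogenised and crosslinked with ultraviolet light in both genotypes, and RNA bound to phosphorylated tau was pulled down with the pS396 antibody on magnetic beads (CLIP). CLIP RNA carried Cy5 (red) and the RNA left in the supernatant carried Cy3 (green), and both were hybridised to the same 2-colour array. There were 3 arrays per genotype, named here PS19 1 to PS19 3 and WT 1 to WT 3. The ages of the mice, the number of animals in a sample and the promoter of the transgene are not given in the sources used here. P-values thus reflect variation among these samples, for CLIP levels pooled over all RNAs, and that variation may be technical. The antibody was the same for both genotypes and no sample without antibody was analysed here, so a ratio of CLIP over supernatant holds unspecific binding too.

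A microRNA hairpin is cut into a duplex, and usually the strand from one side, the guide, is kept by an Argonaute protein while its partner is lost. The guide finds target messenger RNAs mainly through its seed, the bases near its 5′ end, and lowers their translation and stability. In the miR-181 family the 5p strand is the usual guide. The family is abundant in brain and thymus. miR-181a is known for setting the sensitivity of T cell receptor signalling in developing T cells, and in neurons for repressing the AMPA receptor subunit GluA2.

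The mature sequences are shown because the members fall into groups by them. They are RefSeq sequences of build GRCm38.p6, matched by name for 6 of 6 members, with the seed (bases 2 to 8, counted from the 5′ end) in capitals.
mmu-miR-181a-5p: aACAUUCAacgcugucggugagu
mmu-miR-181b-5p: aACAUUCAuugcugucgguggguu
mmu-miR-181c-5p: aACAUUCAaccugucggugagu
mmu-miR-181d-5p: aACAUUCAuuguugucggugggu
mmu-miR-181c-3p: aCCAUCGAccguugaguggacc
mmu-miR-181d-3p: cCCACCGGgggaugaauguca
All 4 5p arms have the seed ACAUUCA, while the 3p arms of miR-181c and miR-181d have different seeds. Outside the seed, miR-181d-5p differs from miR-181a-5p by A9U, C10U, C12U and A21G (base of miR-181a-5p, position from the 5′ end, base of miR-181d-5p). Between miR-181b-5p and miR-181d-5p the substitution is C12U, and the first is 1 base longer. miR-181c-5p is 1 edit away from miR-181a-5p. The bases G and C make up between 43.5% and 47.8% of the 5p arms, 59.1% of miR-181c-3p and 61.9% of miR-181d-3p. Probe sequences were not used here, so whether a probe also binds another member of the family was not tested.

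The arms come from 3 clusters on GRCm38.p6. Mir181a-1 and Mir181b-1 lie on chromosome 1 (chr1:137966455-137966541 and chr1:137966639-137966718, plus strand), and no other gene of the RefSeq table overlaps them. Mir181a-2 and Mir181b-2 lie on chromosome 2 (chr2:38852735-38852810 and chr2:38853830-38853918, plus strand), inside the span of the protein-coding gene Nr6a1 and of the long non-coding RNA gene Nr6a1os. Mir181c and Mir181d lie on chromosome 8 (chr8:84178873-84178961 and chr8:84178716-84178787, minus strand), again with no other gene over them. The miR-181a-5p and miR-181b-5p arms are each made by 2 of these hairpins, whose products the arrays cannot tell apart. For miR-181d both arms and the hairpin between them are named, and the hairpin is shown with its 5p and 3p arms in capitals.
mmu-mir-181d: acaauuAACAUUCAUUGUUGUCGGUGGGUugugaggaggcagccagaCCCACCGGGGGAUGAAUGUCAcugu

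Arrays differed from each other in ways that genotype does not cover. One scan held PS19 1 with WT 2, a second held PS19 2 with PS19 3, and the other WT arrays had a scan each. In the CLIP channel the probes well above background made up between 37.6% and 49.4% of all probes in PS19, against 10.6%, 44.2% and 24.7% on WT 1, WT 2 and WT 3, and in the supernatant channel between 35.5% and 63.2% over all arrays. CLIP levels of 2238 RNAs correlated by 0.97 between PS19 1 and WT 2, which differ in genotype and share a scan, and by 0.71 between WT 2 and WT 3. No spot of the family was saturated or flagged as an outlier. Precision is limited by the small number of arrays and by how far signals stood above background.

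The tau pull-down itself was compared first, for the CLIP level of each miR-181 arm in PS19 and WT hippocampus. None of the 6 arms passed the test. miR-181a-5p, miR-181c-5p and miR-181d-5p lay above the median RNA in PS19 relative to WT, by 0.54 to 1.30 on the log2 scale, but without WT 3 each of these differences was below 0. Levels are log2 processed red signals relative to the array's 75th percentile, and limma called none of 2356 RNAs at an adjusted p under 0.05 (0%). Without adjustment 1.91% of RNAs were higher and 0.255% lower in PS19 at p under 0.05, among them miR-181a-5p and miR-181c-5p, both higher. All 6 arms overlapped between the groups, while 4.69% of 2238 RNAs did not. The median RNA itself differed by 0.85, and differences of single arms are given relative to it. The unadjusted p-values are for differences before that subtraction. They rest on a standard error (SE) of 1.04 pooled over RNAs. They thus do not reflect how far these arms varied in WT (SD 3.06 for miR-181a-5p and 3.36 for miR-181c-5p).

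miR-181a-5p, made by 2 hairpins and studied in neurons for its action on GluA2, had CLIP levels of 2.21, 1.51 and 1.64 on PS19 1 to PS19 3, against 0.93, 2.04 and -3.72 on WT 1 to WT 3. WT 1 and WT 2 lay near the PS19 arrays, and WT 3 lay far below all of them. The mean was 1.79 ± 0.37 in PS19 and -0.25 ± 3.06 in WT (SD, n = 3 each), a difference of 1.19 relative to the median RNA, or 2.28-fold (limma adjusted p = 0.773, unadjusted p = 0.049 for the difference of 2.04 before that subtraction, SE 1.04). Without WT 3 it was -0.16, the opposite direction. With the scan as a fixed block, which compares PS19 1 with WT 2, it was 0.038.

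miR-181c-5p, 1 edit from miR-181a-5p and with the same seed, had 1.45, 0.74 and 0.64 in PS19, against 0.07, 1.31 and -5.02 in WT. Its order of arrays was close to that of miR-181a-5p, with overlapping groups and WT 3 lowest. Relative to the median RNA it differed by 1.30, or 2.47-fold (limma adjusted p = 0.773), by -0.22 without WT 3 and by 0.0042 with the scan as a fixed block. miR-181d-5p, from the same cluster, had -2.56, -2.92 and -2.99 in PS19, against -3.66, -2.82 and -6.15 in WT. The relative difference was 0.54 (limma adjusted p = 0.773), -0.047 without WT 3, 0.27 with normexp background correction and 0.14 with the scan as a fixed block. On WT 3 only 1 of its 5 probes was well above background in the CLIP channel, and on WT 1 only 2 were.

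miR-181b-5p, the second arm made by 2 hairpins, was dim: its CLIP levels were -4.29, -5.02 and -4.93 in PS19, against -6.02, -4.89 and -5.98 in WT. In PS19 11 of 12 probe readings (4 probes on 3 arrays) were well above background, against 3 of 12 in WT, with 0 of 4 on WT 1. The groups overlapped through WT 2, and the relative difference was 0.034 (limma adjusted p = 0.773). All these CLIP differences share an SE of 1.04, which is pooled over RNAs.

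Of the 3p arms, usually the passenger strands, miR-181c-3p was low on WT 3 like its 5p arm (r = 0.90 over the 6 arrays in CLIP and 0.95 in supernatant), while miR-181d-3p was not (r = -0.17 with miR-181d-5p in CLIP and -0.78 in supernatant). These correlations describe the same 6 arrays. miR-181c-3p had CLIP levels of -2.21, -3.58 and -3.57 in PS19, against -1.88, -2.31 and -6.59 in WT. WT 1 and WT 3 lay on opposite sides of all PS19 arrays, and on WT 3 none of its 5 probes was well above background. The relative difference was -0.37 (limma adjusted p = 0.82) and turned to 0.70 without WT 1. miR-181d-3p had -1.50, -2.22 and -2.17 in PS19, against -4.15, -1.45 and -1.17 in WT. Here WT 3 was the highest array and WT 1 the lowest, and on WT 1 none of the 5 probes was well above background. Its relative difference was -0.56 (limma adjusted p = 0.868), and 0.37 without WT 3.

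**Figure D1:**
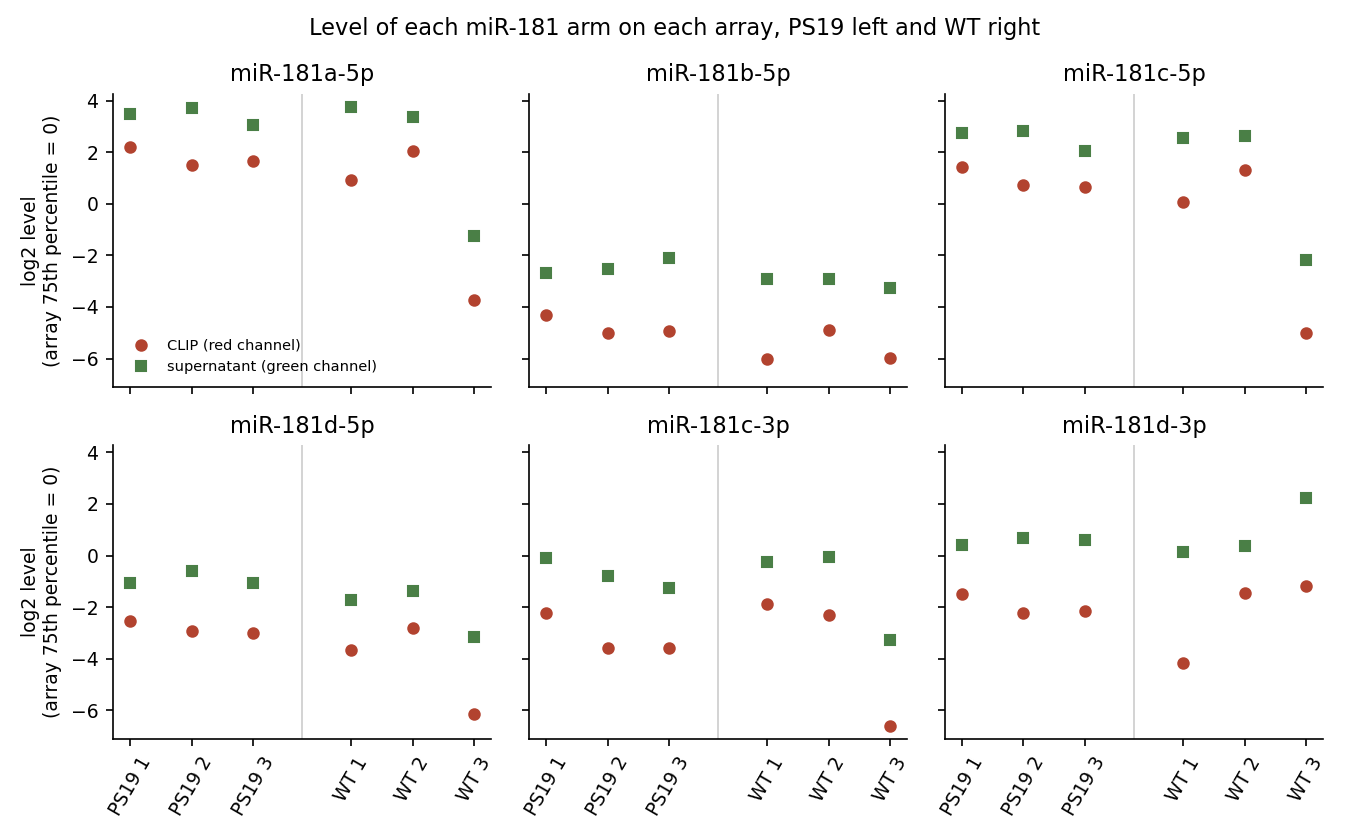
Log2 level of each miR-181 arm (y axis, relative to the array's 75th percentile) on the 3 PS19 arrays, left, and the 3 WT arrays, right, with CLIP RNA as circles and supernatant RNA as squares. Each point is the mean of the arm's 4 or 5 probes; on WT 3 the miR-181a-5p, miR-181c-5p, miR-181d-5p and miR-181c-3p arms drop in both channels, to -3.72 for miR-181a-5p in CLIP, while miR-181d-3p is highest there. Levels of different panels are not comparable with each other, since each probe has its own brightness.

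The supernatant channel showed whether the arms differed in the RNA that the antibody left behind. None of the 6 arms passed, and limma called 0% of 3727 RNAs tested. Unadjusted, 1.74% of RNAs were higher and 1.05% lower in PS19 at p under 0.05, and none of the 6 arms was. For 2 of them, miR-181b-5p and miR-181d-5p, the PS19 and WT arrays did not overlap, while among all 3668 RNAs with a value on each array 9.84% had groups that did not overlap in either direction and 7.42% were higher in PS19 without overlap. In supernatant the median RNA differed by 0.096.

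miR-181d-5p had supernatant levels of -1.08, -0.59 and -1.07 in PS19, against -1.74, -1.36 and -3.17 in WT. Every PS19 array lay above every WT array, and WT 3 was again the lowest. The mean was -0.91 ± 0.28 in PS19 and -2.09 ± 0.96 in WT (SD, n = 3 each), a relative difference of 1.08, or 2.12-fold (limma adjusted p = 0.928, unadjusted p = 0.062, SE 0.52). It was 0.65 without WT 3, 0.13 with normexp, 0.21 with the scan as a fixed block and 0.61 with it as a random block. miR-181b-5p had -2.68, -2.54 and -2.11 in PS19, against -2.90, -2.90 and -3.25 in WT. The gap between the groups was small beside the spread in PS19, and WT 3 was only slightly lower than the other WT arrays. Its relative difference was 0.48 (SE 0.30, limma adjusted p = 0.928), 0.47 without WT 3, 0.072 with normexp, 0.15 with the scan as a fixed block and 0.28 with it as a random block. On PS19 2 only 2 of its 4 probes were well above background in supernatant.

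The other arms overlapped between genotypes in supernatant. miR-181a-5p had 3.47, 3.70 and 3.07 in PS19, against 3.76, 3.37 and -1.26 in WT, a relative difference of 1.36 that was -0.14 without WT 3. miR-181c-5p had 2.75, 2.82 and 2.06 in PS19, against 2.57, 2.64 and -2.18 in WT, a relative difference of 1.44 that was -0.046 without WT 3. For both, WT 1 and WT 2 lay inside or above the range of PS19. With normexp these differences were 0.49 for miR-181a-5p and 0.38 for miR-181c-5p, and with the scan as a fixed block 0.030 and 0.040 in the same order. miR-181c-3p had -0.09, -0.81 and -1.26 in PS19, against -0.26, -0.06 and -3.27 in WT (relative difference 0.38, -0.55 without WT 3). miR-181d-3p had 0.40, 0.67 and 0.59 in PS19, against 0.14, 0.36 and 2.22 in WT (relative difference -0.46, 0.31 without WT 3). Adjusted p was 0.928 in limma for all 4.

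WT 3 was compared with the median of the other 5 arrays for each arm, as a description chosen after its values were seen. miR-181a-5p was lower on WT 3, with a log2 difference of -5.37 in the CLIP channel (41.3-fold) and of -4.73 in the supernatant (26.5-fold). Its processed signal was 790 in CLIP and 501 in supernatant on WT 3, while on the other arrays it lay between 7619 and 38395 in CLIP and between 6787 and 29988 in supernatant. All 5 of its probes were well above background on WT 3 in both channels. The median RNA was at -1.54 in CLIP and -0.42 in supernatant, and 0.849% of 2238 RNAs in CLIP and 0.409% of 3668 RNAs in supernatant were as low as miR-181a-5p or lower.

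miR-181c-5p stood at -5.76 in CLIP (54.1-fold, with 0.357% of RNAs as low) and at -4.83 in supernatant (28.4-fold, 0.382%), and all its probes were well above background on WT 3. miR-181d-5p was at -3.23 and -2.09, with 14.2% of RNAs as low in CLIP. miR-181b-5p, at -1.05 in CLIP and -0.57 in supernatant, lay near the median RNA. The drops of the 4 guides with 1 seed were thus unequal on this array. On WT 3 in CLIP only 1 of 4 miR-181b-5p probes and 1 of 5 miR-181d-5p probes were well above background. In supernatant their processed signals there were 126 and 133, with all probes well above background. The supernatant signal of miR-181b-5p was lower on WT 1, at 67, also with all its probes well above background. Whether signal strength had a part in the unequal drops was not tested. miR-181c-3p was at -4.28 in CLIP, where it was not well above background, and at -3.01 in supernatant, with 3.03% of RNAs as low. miR-181d-3p was at 1.00 in CLIP and 1.82 in supernatant, and 2.64% and 3.19% of RNAs were as high.

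Both arms of miR-181d are cut from 1 hairpin, and their balance differed between arrays. The 5p minus 3p difference in log2 level was lower on WT 3 than the median of the other 5 arrays by 3.74 in supernatant, where all probes of both arms were well above background, and by 4.17 in CLIP, where 1 of 5 miR-181d-5p probes was. For miR-181c it was lower by 1.76 in supernatant. No CLIP value is given for miR-181c, since none of its 3p probes was well above background on WT 3. Both channels of WT 3 moved alike, so the CLIP over supernatant ratio of miR-181a-5p on WT 3, 0.89, lay within the range of the PS19 arrays. Whether the scan, the tissue sample or the animal set these levels cannot be told apart, since WT 3 was scanned alone.

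**Figure D2:**
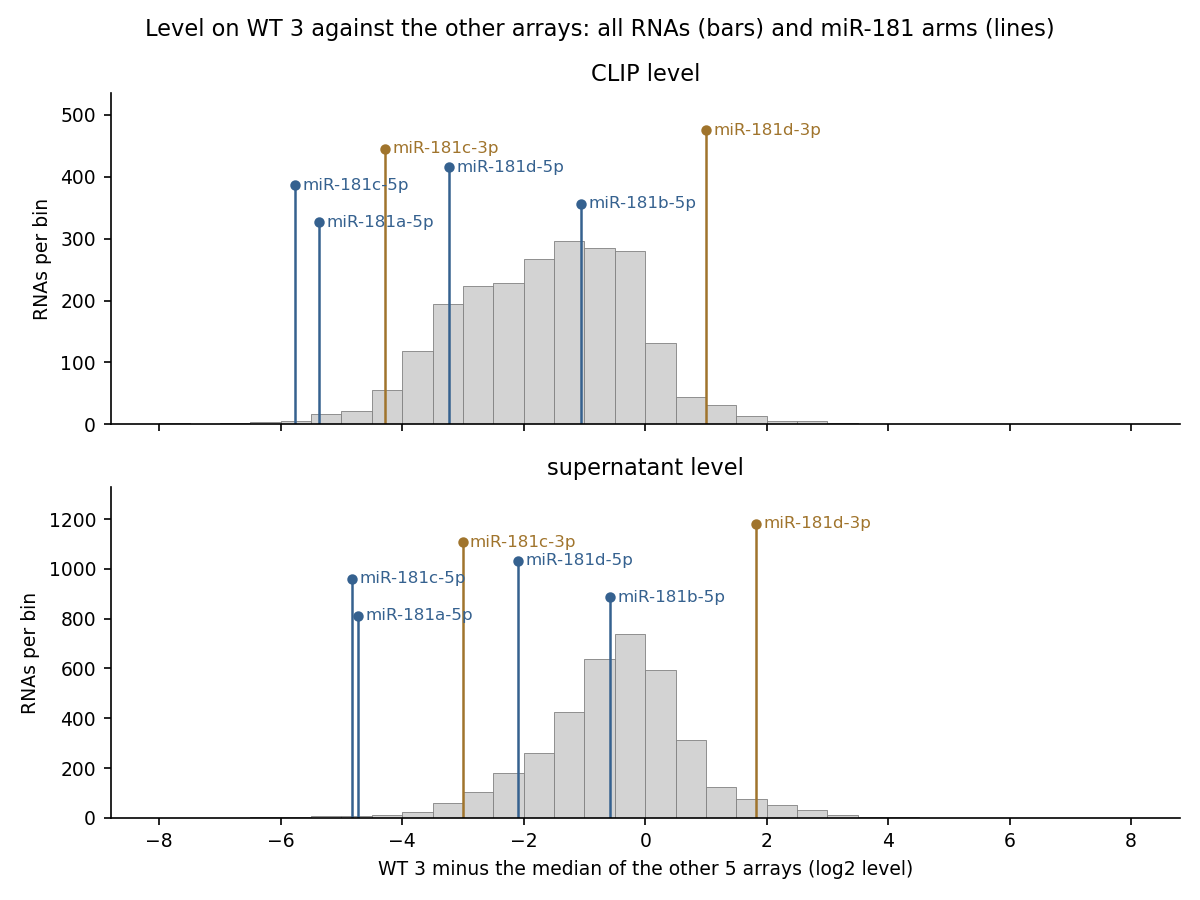
Level on WT 3 minus the median of the other 5 arrays (x axis, log2) for all RNAs with a value on each array, as counts per bin of 0.5 (grey bars, values beyond the axis in the end bins), and for the 6 miR-181 arms (lines, 5p arms blue, 3p arms brown). Upper panel CLIP, lower panel supernatant. miR-181a-5p and miR-181c-5p lie at the low edge of all RNAs in both panels and miR-181d-3p near the high edge; line heights only separate the labels.

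The ratio of CLIP over supernatant compares each arm with itself in the 2 channels of an array, and 0 is the median of the tested RNAs. The 5p arms of miR-181a, miR-181c and miR-181d were above 0 on 6 of 6 arrays, miR-181d-3p was below 0 on 6 of 6, and miR-181b-5p and miR-181c-3p lay on both sides. Over all 3842 RNAs with a ratio on each array, 4.76% were above 0 on all 6 and 4.35% below. No arm was called between PS19 and WT, where limma called 0% of 3971 RNAs. Unadjusted, 2.09% of RNAs were higher and 2.06% lower in PS19 at p under 0.05, and no arm was. The groups of all 6 arms overlapped, and 8.69% of RNAs did not. No arm's mean in a genotype passed against 0, where limma called 0.101% of RNAs in PS19 and 0.0755% in WT. At an unadjusted p under 0.05 none of the 6 arms was above or below 0 in PS19, where 3.1% of RNAs were above and 3.83% below. In WT the 5p arms of miR-181a, miR-181c and miR-181d were above 0 at p of 0.041, 0.043 and 0.049 (limma, unadjusted), where 4.36% of RNAs were above and 3.63% below. The WT mean of miR-181d-5p was 0.68, and 0.29 without WT 1, where only 2 of its 5 probes were well above background in CLIP. Dyes were not swapped, so a constant bias of a probe or dye stays in a ratio set against 0.

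miR-181a-5p had ratios of 0.34, 0.26 and 0.91 in PS19, against 0.55, 0.33 and 0.89 in WT. The groups overlapped over nearly the same range, with PS19 3 and WT 3 highest. The mean was 0.50 ± 0.35 in PS19 and 0.59 ± 0.28 in WT (SD, n = 3 each), a difference of -0.087 (SE 0.34, limma adjusted p = 0.992). All 15 probe readings (5 probes on 3 arrays) were above 0 in PS19, and so were all 15 in WT. Against 0 the adjusted p was 0.717 in PS19 and 0.602 in WT (limma).

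miR-181c-5p had 0.30, 0.35 and 0.91 in PS19, against 0.88, 0.33 and 0.51 in WT, and 15 of 15 probe readings were above 0 in each genotype. Its difference was -0.057 (SE 0.33, limma adjusted p = 0.992). miR-181d-5p had 0.13, 0.11 and 0.42 in PS19, against 1.46, 0.20 and 0.37 in WT. WT 1 alone stood high, and there only 2 of the 5 probes were well above background in CLIP. The difference of -0.46 (limma adjusted p = 0.992) was -0.072 without WT 1. miR-181b-5p had -0.01, -0.04 and -0.49 in PS19, against 0.26, -0.33 and 0.63 in WT. It had no steady side, with 5 of 12 probe readings above 0 in each genotype.

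In WT, the mean ratios of miR-181a-5p, miR-181c-5p and miR-181d-5p turned sign when normexp was run on the raw signals. Their PS19 means stayed above 0. That setting also leaves out the dye normalisation of the scanner software, and which of the 2 steps turned the WT means was not tested. With it miR-181a-5p averaged 0.62 in PS19 and -0.68 in WT, miR-181c-5p 0.60 in PS19 and -0.58 in WT, and miR-181d-5p 0.15 in PS19 and -0.059 in WT. With a within-array loess miR-181a-5p averaged 0.50 in PS19 and 0.41 in WT. No arm was called with normexp or loess.

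Of the 3p arms, miR-181d-3p had ratios of -0.30, -0.44 and -0.42 in PS19, against -0.91, -0.15 and -0.04 in WT. PS19 arrays lay close together and inside the range of WT, and 15 of 15 probe readings were below 0 in PS19, against 13 of 15 in WT. Its difference was -0.019 (SE 0.34, limma adjusted p = 0.996). miR-181c-3p had -0.52, -0.33 and 0.03 in PS19, against 1.75, -0.60 and 0.03 in WT. On WT 1 its 5 probes ranged from 1.66 to 1.92 and all were well above background in both channels, so the high value did not rest on a single probe. The difference of -0.67 (SE 0.60, limma adjusted p = 0.992) was 0.0078 without WT 1. Over all arrays 99 of 114 probe readings of the 5p arms and 11 of 60 of the 3p arms were above 0. These readings come from only 4 5p arms and 2 3p arms, and probes of 1 arm on 1 array are not independent. Of all named 5p arms tested, 50.6% had a mean above 0 in PS19 and 54.5% in WT. Of the 3p arms it was 54.8% in PS19 and 52.3% in WT. These shares count arm means, so they are not a like measure for the probe readings. Among all named arms tested the median ratio was 0.01 in PS19 and 0.03 in WT for 545 5p arms, and 0.04 in PS19 and 0.02 in WT for 354 3p arms.

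**Figure D3:**
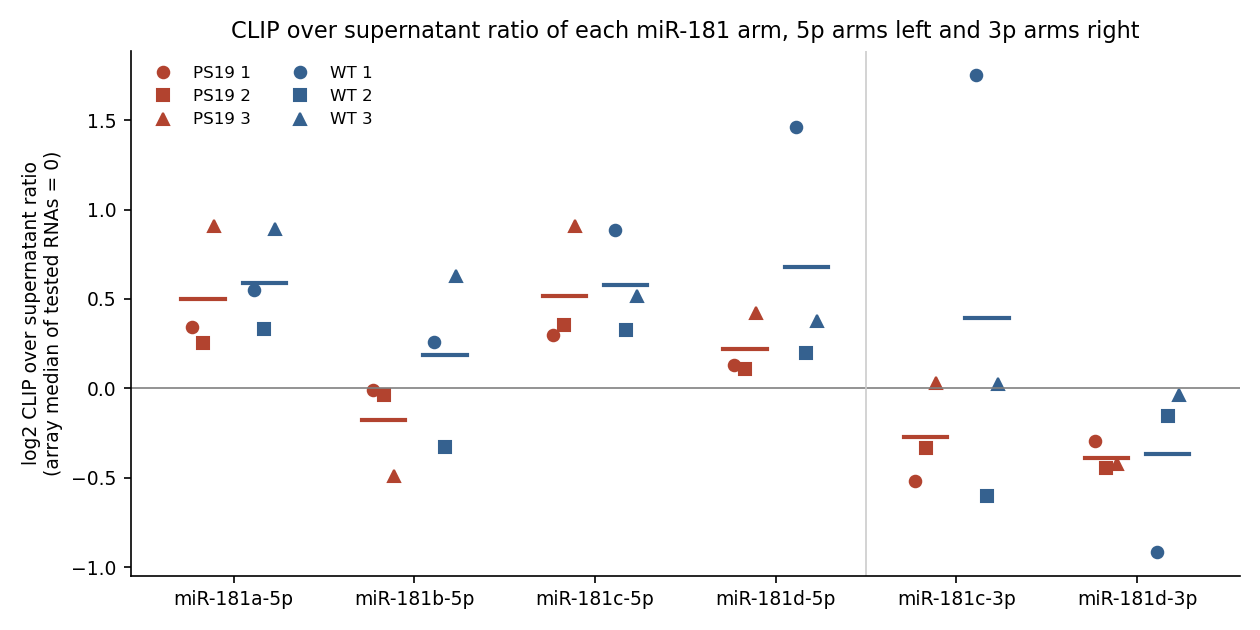
Log2 ratio of CLIP over supernatant (y axis, 0 is the median of the tested RNAs) for each arm on each array, PS19 in red left of WT in blue; symbols give the replicate and horizontal lines the mean of 3 arrays. The 5p arms of miR-181a, miR-181c and miR-181d are above 0 on every array and miR-181d-3p is below 0 on every array; WT 1 stands high for miR-181d-5p (1.46) and miR-181c-3p (1.75).

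Arms of 1 hairpin were then set against each other, as the 5p minus the 3p ratio on the same array, which centring cannot change. Both named pairs had higher 5p than 3p ratios in PS19, by 0.79 ± 0.10 for miR-181c and 0.61 ± 0.21 for miR-181d, against 0.18 ± 0.94 and 1.05 ± 1.15 in WT (SD, n = 3 each). Without WT 1 the WT means were 0.71 for miR-181c and 0.38 for miR-181d. Neither pair was called between genotypes, and limma called 0% of 200 pairs. Unadjusted, 0.5% of pairs were higher and 0.5% lower in PS19 at p under 0.05, and neither pair of the family was. Their groups overlapped, while those of 6.08% of all pairs did not. Over the 200 pairs the median was 0.0034 in PS19 and 0.042 in WT. The mean was above 0 for 51% of the pairs in PS19 and for 52.5% in WT.

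For miR-181c the arm difference was 0.81, 0.68 and 0.88 in PS19, against -0.87, 0.93 and 0.49 in WT. PS19 arrays lay within a narrow range, which WT 2 exceeded, and WT 1 had the opposite sign. The difference between genotypes was 0.61 (SE 0.51, limma adjusted p = 0.959), and 0.083 without WT 1. Within PS19 the adjusted p against 0 was 0.643 in limma (unadjusted p = 0.059; 1.5% of pairs called after adjustment), and 4.5% of the pairs had a PS19 mean as high or higher. For miR-181d it was 0.43, 0.55 and 0.84 in PS19, against 2.38, 0.35 and 0.41 in WT. It was above 0 on 6 of 6 arrays, which held for 3.87% of pairs with all values. In PS19 10% of the pairs had a mean as high as that of miR-181d or higher. The difference between genotypes was -0.44 (SE 0.58, limma adjusted p = 0.959), and 0.23 without WT 1. On WT 1 none of the miR-181d-3p probes was well above background in CLIP. Within WT the adjusted p against 0 was 0.478 in limma (unadjusted p = 0.034; 1.5% of pairs called after adjustment, 6% above and 3.5% below 0 at an unadjusted p under 0.05), and without WT 1 the adjusted p was 0.679. In the shared scan PS19 1 minus WT 2 was -0.11 for miR-181c and 0.079 for miR-181d.

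**Figure D4:**
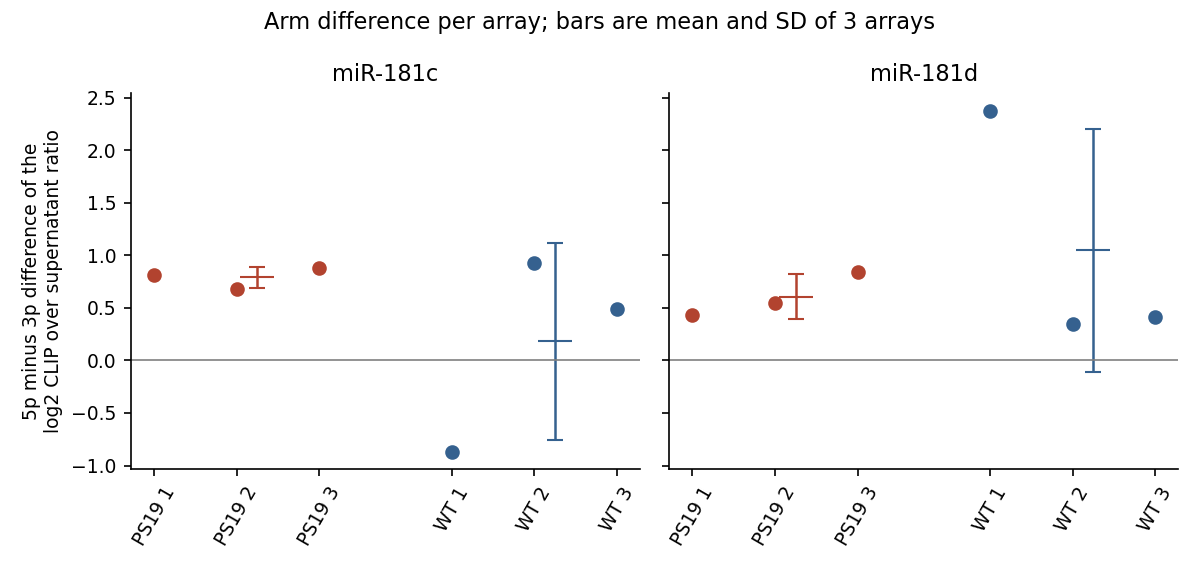
Difference of the log2 CLIP over supernatant ratio between the 5p and the 3p arm of 1 hairpin (y axis) on each array, PS19 in red left of WT in blue, with mean and SD of 3 arrays beside the middle array. PS19 arrays sit between 0.43 and 0.88 for both pairs; WT 1 is at -0.87 for miR-181c and 2.38 for miR-181d.

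The hairpin mmu-mir-181d, the precursor shown above, had CLIP levels of -0.59, -1.93 and -1.76 in PS19, against 1.25, -0.75 and -3.56 in WT. WT 1 lay above and WT 3 below every PS19 array. Its relative difference was -1.26 (limma adjusted p = 0.835). The ratio of CLIP over supernatant was 0.19, 0.01 and 0.73 in PS19, against 1.25, 0.41 and 1.96 in WT. It was above 0 on 6 of 6 arrays, and the difference of -0.89 did not pass (SE 0.46, limma adjusted p = 0.992). Whether mature miR-181d adds to the signal of the hairpin's probe was not tested.

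The 3 RNAs of other families whose ratio followed miR-181a-5p most closely over the 6 arrays, among 397 RNAs well above background in both channels on all of them, were mmu-mir-718 (r = 0.99), mmu-miR-5132-5p (r = 0.95) and mmu-miR-470-5p (r = 0.92). The median r of all compared RNAs was 0.17. Within the family miR-181c-5p reached r = 0.67, and the other arms lay between 0.12 and 0.28. All points share the same 6 arrays, and the values describe likeness only.

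Other microRNAs that neurons regulate with activity or at synapses gave 9 of 18 named and tested members, among them miR-124-3p, miR-134-5p and miR-138-5p. None passed in any of the 3 measures. In CLIP 3 lay above and 6 below the median RNA in PS19 minus WT (median -0.042 relative to it), while 4 of the 6 miR-181 arms lay above and 2 below (median 0.29). In supernatant 6 lay above and 3 below (median 0.025), while 5 of the miR-181 arms lay above and 1 below (median 0.78). The tallies of the miR-181 arms changed without WT 3. In that setting, added for them after seeing the data, 2 of the miR-181 arms lay above and 4 below in CLIP (median -0.11), against 7 above and 2 below in the neuronal list (median 0.12). In supernatant without WT 3, 3 of the miR-181 arms lay above and 3 below (median 0.13), against 6 above and 3 below in the neuronal list (median 0.44). For the ratio the median difference was -0.16 over the 9, -0.23 over the miR-181 arms and -0.022 over all RNAs.

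Markers of the cell types that hippocampus holds were read on the same arrays. For neurons 6 of 10 were named, and their summed linear CLIP level lay between 0.604 and 0.754 in PS19 and between 0.261 and 0.728 in WT. For oligodendrocytes 1 of 3 was named, for erythroid blood 1 of 4, for microglia and other leukocytes 1 of 5, for choroid plexus 2 of 5 and for endothelium 0 of 2, and none of those named passed. The leukocyte marker miR-155-5p summed to between 0.185 and 0.272 in PS19 and between 0.0348 and 0.244 in WT in CLIP, and the erythroid miR-144-5p to between 0.0724 and 0.140 in PS19 and between 0.00411 and 0.116 in WT. The oligodendrocyte, erythroid, leukocyte and choroid plexus sums were lowest on WT 3 in both channels, while the neuronal sum in supernatant was highest there, at 3.61. Of that sum 2.81 came from miR-134-5p, and the neuronal list did not move 1 way: miR-9-3p and miR-138-5p had their lowest supernatant levels on WT 3, at -4.24 and -4.30 on the log2 scale. Their part in the miR-181 levels was not tested. In tissue, fewer cells of a type and less RNA per cell cannot be told apart.

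The authors' deposited table, whose values run PS19 minus WT, gives log2 fold changes of 1.24 for miR-181a-5p, 1.35 for miR-181c-5p and 0.59 for miR-181d-5p. In the authors' deposited table these have p-values of 0.231, 0.260 and 0.207, and ranks of 392, 450 and 341 by p among its 2380 RNAs. The 3p arms stand in the authors' deposited table at -0.32 for miR-181c-3p and -0.51 for miR-181d-3p, and every member has an adjusted p of 0.999 there.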

How the data were processed

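The deposited scanner files hold an intensity per spot in each channel. Per the file headers, Agilent Feature Extraction 11.0.1.1 subtracted background and normalised the dyes within each array. The deposited value table holds log2 values equal to the log2 red processed signal minus 1 offset per array. Its direction and scale were checked against the scanner files, and the offset's origin was not used. The authors' deposited table gives log2 fold changes and p-values per RNA. Its 2380 names each matched 1 of 557616 candidate sets of 1 to 5 probes within a span of 7 neighbouring probes (tolerance 1e-09 for the fold change, 1e-07 for p).

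Log2 processed signals were averaged over an RNA's probes. For scaling, the 75th percentile of each array was taken over 550 RNAs in CLIP and 1703 in supernatant, those well above background on every array, and ratios were centred on the array's median over tested RNAs. RNAs well above background on at least 3 arrays were tested with limma 3.58.1 (lmFit, eBayes, R 4.3.3) over the whole table with Benjamini-Hochberg adjustment, called under 0.05. Arm pairs were fitted likewise over 200 pairs. On simulated data an 8-fold change was called for 19.4% of changed RNAs in CLIP (2238 RNAs), 73.1% in supernatant (3668) and 77.6% in the ratio (3842), and a 2-fold change for 0%, 8.96% and 4.48% in the same order. Among 181 arm pairs an 8-fold change was called for 93.3% of changed pairs and a 2-fold change for 6.67%.

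The 6 members, the marker lists and the related list were chosen with earlier results of these data known. All named members are described, the hairpin because it is named, and 3 RNAs most like miR-181a-5p by Pearson correlation. Alternatives covered scaling, centring, loess, normexp (offset 50), filters, variance trend, blocks and left-out arrays. Titles number the samples 1 to 3 in each genotype. Deviations of same-numbered arrays from their group means correlated by -0.08, -0.52 and 0.32 in CLIP and by 0.14, -0.43 and 0.46 in supernatant. The numbers were thus not taken as pairs, though these correlations cannot exclude a pairing.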

Additional observations from a re-analysis of the deposited data

How the results depend on the processing

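For all 8 comparisons the count of miR-181 arms or pairs called was 0 in each of 110 alternative settings. Of 597 single values under alternatives, 533 kept their direction and 64 turned. Of those that turned, 26 did so when 1 array was left out, 11 of these without WT 3. Part of the 533 could not turn, so the tally overstates robustness. A variance trend leaves every difference as it was. For levels, settings that shift a whole array by a constant nearly cancel once the median RNA is subtracted. The relative CLIP difference of miR-181a-5p was thus 1.19 with no scaling and 1.17 with the authors' value table. The lowest adjusted p of any arm was 0.072, for the CLIP levels of miR-181a-5p and miR-181c-5p without WT 2. A replicate block by sample number puts 1 array of each genotype in a block. It thus cannot change the difference of an arm with a value on each array, and no direction turned. The relative CLIP difference of miR-181a-5p was 1.19 with it and its ratio difference -0.087. The labels do not say whether same-numbered samples were paired. The cause of the turns below was not tested.

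Turned relative differences in CLIP were -0.093 with quantile normalization and -0.048 with normexp for miR-181b-5p, 0.059 with normexp and 0.012 with no filter on dim RNAs for miR-181c-3p, and 0.027 with the scan as a fixed block for mmu-mir-181d. In supernatant they were -0.18 with normexp and -0.10 with the scan as a fixed block for miR-181c-3p, and for mmu-mir-181d 0.089 with quantile normalization, 0.25 with the scan as a fixed block and 0.0064 with it as a random block.

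Turned ratio differences of miR-181a-5p were 0.13 with no centring, 0.086 with loess, 1.29 with normexp, 0.20 with no filter and 0.013 with the scan as a fixed block. miR-181c-5p gave 0.16 with no centring, 0.089 with loess, 1.18 with normexp and 0.23 with no filter, and miR-181d-3p 0.20, 0.092, 0.76 and 0.27 in the same order. With normexp miR-181c-3p was at 0.30, miR-181d-5p at 0.21 and mmu-mir-181d at 0.60. The scan as a fixed block gave 0.32 for miR-181b-5p and 0.085 for miR-181c-3p. WT ratios turned with normexp to -0.68 for miR-181a-5p, -0.36 for miR-181c-3p, -0.58 for miR-181c-5p, -0.059 for miR-181d-5p and -0.30 for mmu-mir-181d, and for miR-181b-5p to -0.027 with no centring and -0.12 with no filter. The miR-181c arm difference in WT was -0.22 with normexp. With the scan as a fixed block, chosen for arm pairs after seeing the data, the genotype difference was -0.11 for miR-181c and 0.079 for miR-181d.

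Leaving out 1 array gave relative CLIP differences from -0.16 to 1.99 for miR-181a-5p, -0.26 to 0.24 for miR-181b-5p, -1.49 to 0.70 for miR-181c-3p, -0.22 to 2.16 for miR-181c-5p, -1.29 to 0.37 for miR-181d-3p, -0.047 to 1.03 for miR-181d-5p and -2.15 to 0.090 for mmu-mir-181d. Supernatant differences ranged from -0.14 to 2.14 for miR-181a-5p, -0.55 to 0.86 for miR-181c-3p, -0.046 to 2.17 for miR-181c-5p, -0.96 to 0.31 for miR-181d-3p and -1.54 to 1.00 for mmu-mir-181d. Ratio differences ranged from -0.30 to 0.056 for miR-181a-5p, -1.18 to 0.0078 for miR-181c-3p, -0.26 to 0.091 for miR-181c-5p and -0.30 to 0.14 for miR-181d-3p. WT ratios ranged from -0.026 to 0.46 for miR-181b-5p and from -0.28 to 0.91 for miR-181c-3p. The arm difference in WT ranged from -0.19 to 0.71 for miR-181c, and the genotype difference of miR-181d from -0.79 to 0.23.

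Signal over background limits miR-181b-5p on all WT arrays, miR-181d-5p on WT 1 and WT 3, miR-181c-3p on WT 3 and miR-181d-3p on WT 1 in the CLIP channel. In supernatant it limits miR-181b-5p on PS19 2.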

Other observations

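An unnamed microRNA probe has a code that lies among those of the 4 miR-181b-5p probes. It was well above background in supernatant on 6 of 6 arrays and in CLIP on PS19 1 and WT 2. Its ratio of CLIP over supernatant was -0.12, -1.51 and -0.55 in PS19, against 0.15, 0.53 and -0.39 in WT. The files used here do not pair it with a name, and it was left out of the values of miR-181b-5p.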
